A study of Mus musculus with 6 samples.

Results

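Ptgr1 and 8 further genes of leukotriene B4 metabolism were examined in hypoxic mouse blood neutrophils with and without phd3. The members were chosen by name, as genes of leukotriene release, synthesis, inactivation and reception, and every probe set carrying 1 of the 9 symbols was taken. Earlier results of these data were known when the members were chosen. The members had 12 probe sets and were 9 of the 18193 genes named in the table. Ptgr1 itself was picked because its values were lower in phd3 null, so its difference between genotypes is given as a description with no test.

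The study used peripheral blood neutrophils of phd3 null and of wild-type mice, 3 arrays per genotype, with each array taken as 1 mouse. All mice were on a C57 background, and all cells were purified by negative magnetic selection and kept for 4 h at 3% oxygen, so hypoxia was shared by both groups. Phd3, now named Egln3, encodes a prolyl hydroxylase that marks the hypoxia-inducible factor HIF for degradation. The labels do not give the age or sex of the mice, nor which exons of Egln3 were removed, so whether its probes lie inside the deletion is not known here. Samples are numbered 1 to 3 in each genotype, and same-numbered samples share a code in the source labels, so each such pair is also given on its own.

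Values are MAS5 signals, which have no unit beyond the scaling of each array to a common mean, and the number of arrays limits their precision. Median signals were 51.7 to 64.2 on phd3 null and 49.4 to 60.3 on wild-type arrays, and no detection calls were used, so a signal near or below these medians does not show that a gene was expressed. Egln3 ran from 29.6 to 87.2 in phd3 null and from 327 to 2088 in wild type by its brighter probe set, so the labels and the targeted gene go together. In limma Egln3 passed with the replicate number as a block (adjusted p = 0.00140) and not without it (adjusted p = 0.9996). The arrays of sample 3 stood apart in both genotypes: their median correlations with the rest were 0.739 (phd3 null) and 0.788 (wild-type array), while samples 1 and 2 reached 0.838 to 0.866. Of 9 neutrophil markers found on the array all 9 passed the filter on dim genes, with S100a8 at 11102.8 to 20428.6 in phd3 null and 17949 to 25479.7 in wild type. On phd3 null sample 3, Cxcr2 was at 25.6, below that array's median of 64.2, and the other neutrophil markers were above it. Monocyte markers were also bright: Csf1r, the M-CSF receptor gene, had signals of 3537.6 to 10857.8 in phd3 null and 4048.6 to 11088.3 in wild type. In bulk RNA, fewer cells of a type and less RNA per cell cannot be told apart.

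Leukotriene B4 is a lipid chemoattractant that neutrophils both make and follow. Cytosolic phospholipase A2 frees arachidonic acid from membranes, 5-lipoxygenase with its partner FLAP turns it into the unstable leukotriene A4, and leukotriene A4 hydrolase makes leukotriene B4 from that. Leukotriene C4 synthase instead couples leukotriene A4 to glutathione. The signal is read by the receptor BLT1 and ended by oxidation, either at the omega end by cytochromes P450 of the CYP4F family or at the 12-hydroxyl group by the reductase encoded by Ptgr1.

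The inactivating enzymes come first. Ptgr1 encodes prostaglandin reductase 1, an NADPH-dependent enzyme also called leukotriene B4 12-hydroxydehydrogenase. Cyp4f18 encodes a mouse neutrophil P450 that oxidises leukotriene B4. Their promoters are shown because these 2 genes ran nearly in parallel over the arrays. Many other genes did so too, with 559 of 10959 having a Pearson correlation over 0.9 with Ptgr1. The letters are RefSeq sequence (mouse build GRCm38.p6), read 5′ to 3′ on the gene's own minus strand and ending at the base before the annotated start. Ptgr1 covers chr4:58987079-58987258 and Cyp4f18 covers chr8:72009627-72009836. Capitals mark motif matches, which in Ptgr1 are a C/EBP-type sequence and a TATA box, and in Cyp4f18 a PU.1-type sequence and an antioxidant response element.
Ptgr1: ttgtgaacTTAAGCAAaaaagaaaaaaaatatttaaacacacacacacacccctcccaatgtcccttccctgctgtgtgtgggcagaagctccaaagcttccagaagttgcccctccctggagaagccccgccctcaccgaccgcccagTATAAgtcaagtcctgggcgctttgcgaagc
Cyp4f18: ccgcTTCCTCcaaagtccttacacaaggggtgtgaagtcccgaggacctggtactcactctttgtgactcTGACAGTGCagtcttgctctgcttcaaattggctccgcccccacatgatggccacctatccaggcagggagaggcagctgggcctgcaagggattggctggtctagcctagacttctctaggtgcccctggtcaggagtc

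Motifs were searched in the 250 bases before the annotated start, in the 8 RefSeq windows that 7 of the 9 members had. The antioxidant response element (TGACNNNGC, either strand), which the transcription factor NRF2 binds, was present in 2 of these 8 windows, those of Cyp4f18 and Ltb4r1, and in 10.2% of all 32851 windows. The C/EBP-type sequence (TTGCNNAA, either strand), named for a family of myeloid factors, was in 1 of 8 windows, that of Ptgr1, and in 9.56% of all. The PU.1-type sequence (GAGGAA, either strand) was in 4 of 8 and in 23.3% of all, and the TATA box (TATAA, gene strand) in 2 of 8, Ptgr1 and a second start of Pla2g4a, and in 16% of all. In Ptgr1 the TATA box began 31 bases before the start. Of the cores bound by HIF, ACGTG on either strand was in 0 of 8 windows and in 16.6% of all, and GCGTG on either strand in 1 of 8, that of Pla2g4a, and in 28.2% of all. With 8 windows, none of these counts sets the members apart from all windows. Each match is a match of letters in a short window and not a known binding site, and a missing match says nothing of the factor.

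Ptgr1 had signals of 1280.3, 609.3 and 17.8 in phd3 null, against 2925.9, 2446.4 and 110.6 in wild type, in each case listing samples 1, 2 and 3 in that order, which is kept for all values by array. Every phd3 null array was below the wild-type array of its number, and both sample 3 arrays were far below the rest, so the 2 genotypes overlapped. The 3 phd3 null arrays averaged 635.8 ± 632 and the 3 wild-type arrays 1828 ± 1506 (SD, n = 3 each). On the log2(signal + 16) scale, which understates differences of dim genes, the differences of phd3 null minus wild type were -1.18, -1.98 and -1.91 in pairs 1 to 3. As ratios of signal + 16, phd3 null over wild type, these were 0.441, 0.254 and 0.267. The mean difference of -1.69 had a standard error (SE) of 1.44 when the arrays were taken as unpaired and 0.24 with the replicate number as a block. Over all 10960 genes tested, 13% were lower in phd3 null in 3 of 3 pairs.

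The distance between samples was larger than that between genotypes. In phd3 null, Ptgr1 of sample 3 lay at -4.74 log2 units from the mean of samples 1 and 2, and in wild type at -4.41. The median of the signed differences over all genes tested was 0.12 and 0.08, which does not measure how far genes moved, since they went both ways. Of all genes 16.9% were lowest and 18.5% highest on both sample 3 arrays. The size of the genotype difference moved with single arrays. Without phd3 null sample 1, 2 or 3 it was -2.74, -2.21 or -0.11, and without wild-type sample 1, 2 or 3 it was -0.89, -1.02 or -3.16. With both sample 3 arrays left out it was -1.58.

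Cyp4f18 had a smaller span over the arrays. Its brighter probe set had signals of 1553.4, 896.7 and 290.3 in phd3 null, against 2518.7, 1443 and 570.5 in wild type. Each phd3 null array was again below its partner, the sample 3 arrays were the lowest, and the genotypes overlapped. The pair differences were -0.69, -0.68 and -0.94 on the log2 scale, or ratios of 0.619, 0.626 and 0.522. The mean difference of -0.77 did not pass in limma, either unpaired (SE 0.66, adjusted p = 0.9996) or with the replicate block (SE 0.21, adjusted p = 0.541). Tests were two-sided with Benjamini-Hochberg adjustment over 10960 genes. Unless another setting is named, SEs and adjusted p-values are from the unpaired fit in limma. Without phd3 null sample 3 the mean difference was -0.11, without wild-type sample 3 it was -1.34, without phd3 null sample 1 it was -1.29, and without wild-type sample 1 it was -0.28. A second, dim Cyp4f18 probe set had signals of 11.8, 4.8 and 52.3 in phd3 null and 95.9, 64.7 and 71.6 in wild type. Its groups did not overlap, as in 8.53% of all 45037 probe sets, and the difference of -1.44 (SE 0.66) did not pass in limma over all probe sets (adjusted p = 0.9997).

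**Figure D1:**
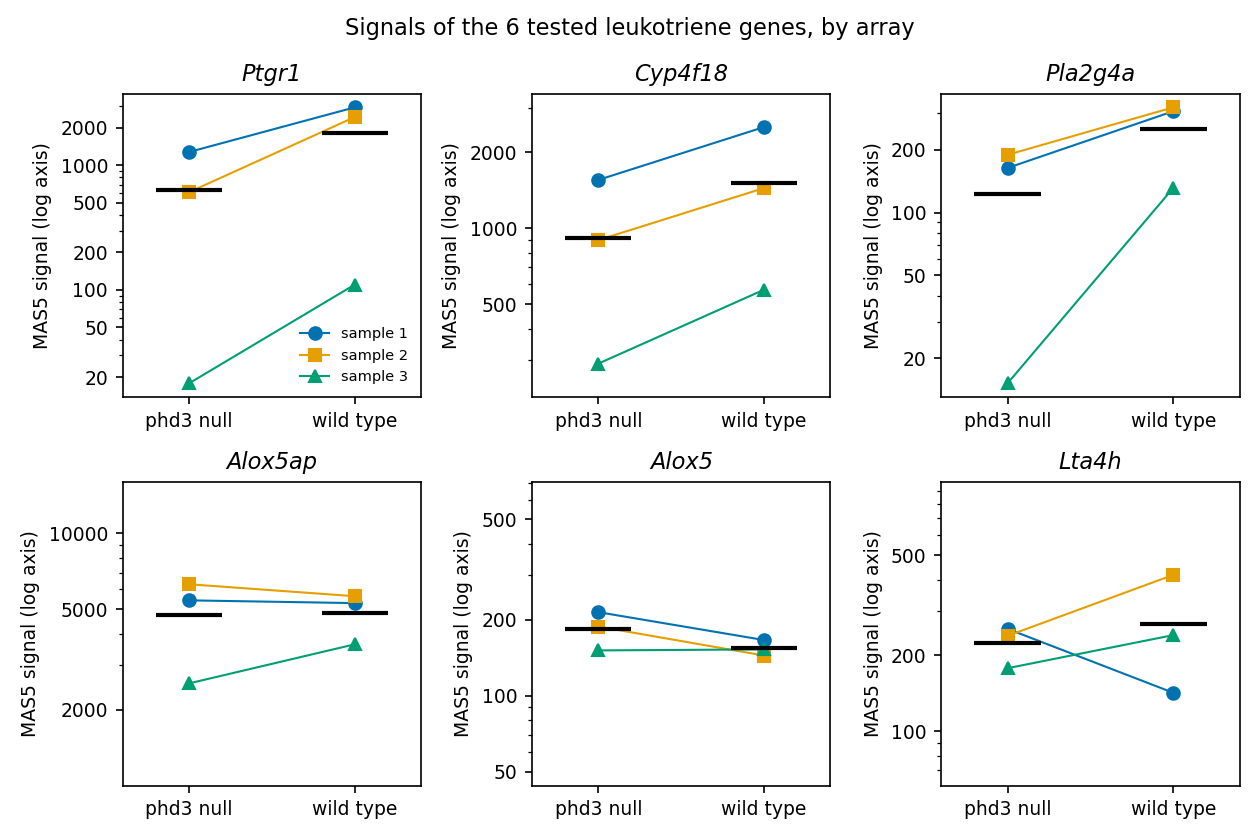
MAS5 signal (log axes, which differ in range) of the 6 leukotriene genes that passed the filter on dim genes, phd3 null at left and wild type at right; each point is 1 array, lines join same-numbered samples and black bars are group means. Ptgr1, Cyp4f18 and Pla2g4a are lower in phd3 null in 3 of 3 pairs, and the sample 3 arrays are the lowest for these 3 genes and for Alox5ap.

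Among the other members, only part could be tested gene by gene. Of the 8, 5 passed the filter on dim genes (Pla2g4a, Alox5ap, Alox5, Lta4h and Cyp4f18), and 0 of these 5 passed in limma after adjustment, with or without the replicate block. Before adjustment, 0 of the 5 were under 0.05 without the block and 2, Cyp4f18 and Pla2g4a, with it. Over all genes 0% passed after adjustment without the block and 0.0182%, or 2 genes, with it, and 1.74% and 5.62% were under 0.05 before adjustment. Their median log2 difference was -0.13, beside -0.01 for all genes tested. This median had no stable sign, being 0.02 without phd3 null sample 3, 0.01 without wild-type sample 2 and -0.36 without phd3 null sample 2. Ltc4s, Ltb4r1 and Alox15 fell below the filter and have values only in the fit of all probe sets, where 0 of 11 probe sets of the 8 genes passed without the block (0% of all probe sets) or with it (0.0133% of all). Of the 11, the dim one of Cyp4f18 was under 0.05 before adjustment (3.07% of all).

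Release of arachidonic acid was represented by Pla2g4a, the cytosolic phospholipase A2 gene. Its signals were 163.5, 189 and 15.2 in phd3 null, against 305.7, 319.2 and 131.4 in wild type. It too was the lower of the pair in phd3 null, 3 times of 3, by -0.84, -0.71 and -2.24 on the log2 scale, with overlap between the groups through wild-type sample 3. The mean difference of -1.26 did not pass in limma, either unpaired (SE 0.68, adjusted p = 0.9996) or with the replicate block (SE 0.35, adjusted p = 0.586). Without phd3 null sample 3 it was -0.39.

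The synthesis genes showed no shared direction. Alox5ap, which encodes FLAP, had signals of 5430.4, 6290.2 and 2543.9 in phd3 null and 5295.6, 5639.3 and 3636.7 in wild type, with pair differences of 0.04, 0.16 and -0.51. Its genotypes overlapped fully, while both sample 3 arrays were low. Alox5, encoding 5-lipoxygenase, had signals of 214.6, 188.1 and 151.3 in phd3 null and 166.3, 144.4 and 152.7 in wild type, with differences of 0.34, 0.35 and -0.01. The single Alox5 probe set is assigned to the gene by the array annotation through an expressed sequence tag, so its place in the transcript is not known here. Lta4h, the hydrolase that forms leukotriene B4, had signals of 255, 239.2 and 178 in phd3 null and 142.2, 417.5 and 240.9 in wild type by its brightest probe set, with differences of 0.78, -0.76 and -0.41. The mean differences were -0.11 (SE 0.43) for Alox5ap, 0.22 (SE 0.30) for Alox5 and -0.13 (SE 0.40) for Lta4h, and none of these 3 passed in limma (adjusted p = 0.9996 for each). The other Lta4h probe sets had signals of 6.3 to 69 and 7 to 59.9 in phd3 null, and 10.9 to 74 and 13.7 to 113 in wild type. They gave mean differences of -0.07 (SE 0.74) and -1.02 (SE 0.76), and neither passed in limma over all probe sets (adjusted p = 0.9997 for each). All 3 means were below 0, but these 2 probe sets were dim and the pairs of the brightest went both ways.

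The genes of the neighbouring branches were dim. Ltc4s, the leukotriene C4 synthase gene, had signals of 6.7, 3.6 and 90.3 in phd3 null and 43.7, 3.4 and 6.3 in wild type. Alox15, encoding the 12/15-lipoxygenase that is abundant in eosinophils and resident macrophages, had signals of 6.8, 5.8 and 10.4 in phd3 null and 59.5, 76.2 and 9.5 in wild type. Wild-type samples 1 and 2 were the high ones for Alox15, and wild-type sample 3 was within the phd3 null range. Its mean difference was -1.25 (SE 0.62) and that of Ltc4s 0.29 (SE 0.69), and neither passed in limma over all probe sets (adjusted p = 0.9997 for each). Markers of eosinophils (2 of 5 passed the filter) summed to 112.6 to 244.9 in phd3 null and 137.1 to 367.9 in wild type. Of the 4 basophil and mast cell markers 0 passed, with sums of 98.1 to 178.1 in phd3 null and 37.6 to 351.3 in wild type. Their part in the Ltc4s and Alox15 signals was not tested.

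The receptor gene Ltb4r1, encoding BLT1, had signals of 8.6, 65.5 and 66.2 in phd3 null and 14.9, 36.3 and 4.6 in wild type. These lay around or below the array medians, and the groups overlapped. The mean difference of 0.77 (SE 0.70) did not pass in limma over all probe sets (adjusted p = 0.9997). The pair differences were -0.33, 0.64 and 2.00.

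**Figure D2:**
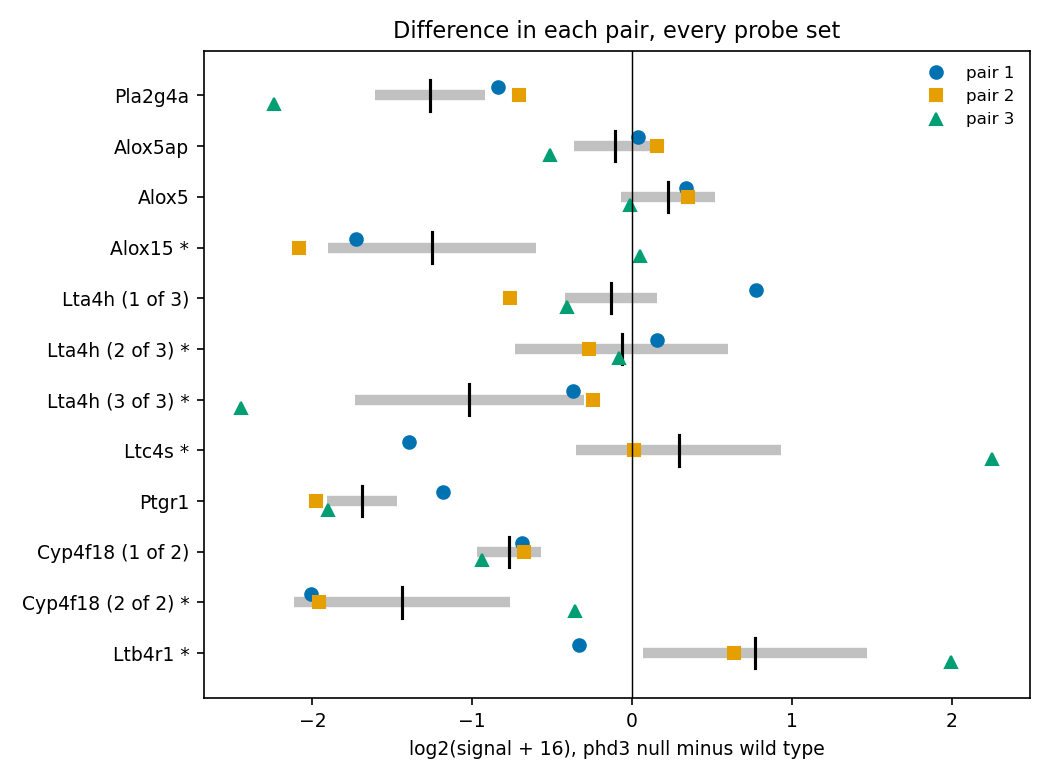
Difference of log2(signal + 16), phd3 null minus wild type, for all 12 probe sets in the order release, synthesis, inactivation and receptor. Symbols are the 3 pairs, black ticks the mean, grey bars 1 SE to either side from limma with the replicate block over all probe sets, and asterisks mark probe sets not used in the fit of genes. Pla2g4a, Ptgr1 and both Cyp4f18 probe sets lie left of 0 in every pair, as does the dimmest Lta4h probe set, while the pairs of Ltc4s and Ltb4r1 fall on both sides. Of the 12 probe sets 5 had the phd3 null array below its partner each time (11.5% of all probe sets) and 0 were higher (14.1% of all). These 5 include Ptgr1, picked for its lower values in phd3 null, so the count is partly set by that choice. Both Cyp4f18 probe sets are also among them.

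The low signals of sample 3 were shared by several members. Of the 6 genes that passed the filter, 4 (Ptgr1, Cyp4f18, Pla2g4a and Alox5ap) were lower on both sample 3 arrays than on each of the other 4 arrays. Of all genes tested 16.9% had this pattern, and 18.5% had both sample 3 arrays above the rest, as did 0 of the 6. Relative to the mean of samples 1 and 2 of its own genotype, sample 3 was at -1.97 in phd3 null and -1.71 in wild type for Cyp4f18, at -2.62 and -1.16 for Pla2g4a, and at -1.19 and -0.59 for Alox5ap. Alox5 and Lta4h moved less, to -0.37 in phd3 null and -0.02 in wild type for Alox5, and to -0.44 and -0.03 for Lta4h.

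Marker levels differed on the same arrays. The 5 monocyte markers found summed to 17760.1, 18502.7 and 4849.7 in phd3 null, against 16612.3, 17686 and 5743 in wild type, with 3 of the 5 lowest on both sample 3 arrays. The 9 neutrophil markers summed to 39593.5, 49695.4 and 25570.9 in phd3 null and to 55662.4, 46442.1 and 42473.4 in wild type, with 4 of 9 lowest on both sample 3 arrays. All 3 B cell markers were highest there, summing there to 2602.7 in phd3 null and to 1979.4 in wild type, while the other 4 arrays had 114.8 to 378.3. The monocyte sum rests mostly on Csf1r and F13a1, and its markers did not move as one between genotypes. In pair 1 Csf1r was lower in phd3 null and the other 4 were higher, in pair 2 Ccr2, Cx3cr1 and Ms4a6c were lower and the other 2 higher, and in pair 3 all 5 were lower. The neutrophil sum rests mostly on S100a8 and S100a9, and its markers did not move as one either. In pair 1 Csf3r, Cxcr2, Mmp8 and Ltf were higher in phd3 null and the others lower. In pair 2 S100a8, Ngp and Camp were lower and the others higher, and in pair 3 all but Ltf were lower. The 3 NK cell markers found summed to 342.4, 1906.1 and 1604.4 in phd3 null, against 979.1, 4576.5 and 2314.9 in wild type. Their sum was lower in phd3 null in each of the 3 pairs, as were Ptgr1, Cyp4f18 and Pla2g4a. Unlike these genes, the NK cell sum was lowest on sample 1 in both genotypes, not on sample 3. The sum rests mostly on Gzma, which with Klrk1 was lower in phd3 null in each pair. Ncr1 had signals of 61, 74.7 and 73.8 in phd3 null and 56.8, 193.5 and 50 in wild type, so it was higher in pairs 1 and 3. The part of these cells in the leukotriene gene levels was not tested.

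Across the 6 arrays, Cyp4f18 had a Pearson correlation of 0.974 with Ptgr1 (Spearman 0.943), which ranked it 61 among the 10959 other genes tested. Pla2g4a followed at 0.918, Alox5ap at 0.891, Alox5 at 0.306 and Lta4h at 0.263. These are descriptions over 6 arrays that share their samples and scaling, and the sample 3 arrays weigh heavily in them. Over the 4 arrays of samples 1 and 2 the values were 0.869 for Cyp4f18 and 0.807 for Pla2g4a, while those of Alox5ap and Alox5 were -0.830 and -0.626.

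The 5 genes closest to Ptgr1 were Ankrd66 (0.996), Slc25a33 (0.995), which encodes a mitochondrial pyrimidine carrier, Clec4n (0.992), which encodes the fungal receptor Dectin-2, Ptgir (0.991), the prostacyclin receptor gene, and Gclm (0.991), the modifier subunit of the enzyme that starts glutathione synthesis. Without the sample 3 arrays they kept correlations from 0.909 for Clec4n to 0.995 for Slc25a33. Of the 10959 genes, 10 had a correlation over 0.99 and 559 over 0.9. The genes most opposed were Uvrag (-0.993), an autophagy and endosome gene, and Dhx33 (-0.993), an RNA helicase gene. Clec4n had signals of 4905.5, 3155.6 and 387.2 in phd3 null and 8853.3, 5254.5 and 963.8 in wild type. Gclm had signals of 2184, 2048.6 and 273.9 in phd3 null and 4800.7, 3857.6 and 752.3 in wild type. Both ran in the array order of Ptgr1, over a narrower span.

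**Figure D3:**
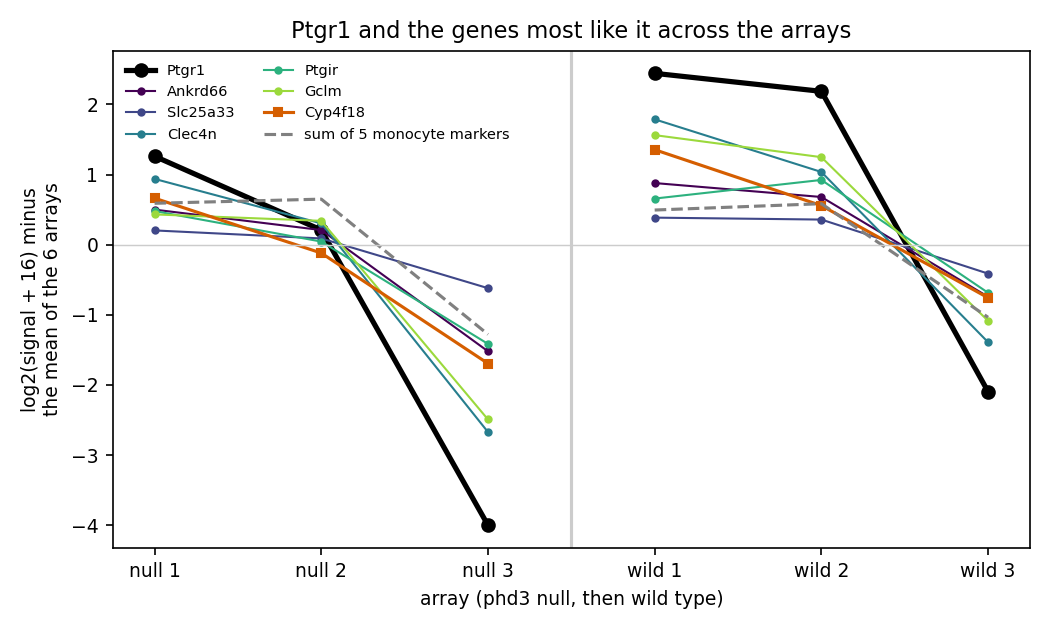
Level on each array as log2(signal + 16) minus the mean of the 6 arrays, for Ptgr1 (thick black), the 5 genes most correlated with it, Cyp4f18, and the summed signal of 5 monocyte markers (dashed); phd3 null arrays are at left and wild-type arrays at right. All lines drop on both sample 3 arrays; Ptgr1 was picked for its lower values in phd3 null and the 5 genes for following it, so their shape is set by that choice.

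The rest of the leukotriene pathway was described with a list of 40 other genes, mostly for arachidonate release and reacylation, lipoxygenases, and leukotriene conversion, export and reception. Fpr2, Ephx2 and Gpx4 in the list are outside these groups, and Abcc1 and Abcc4 are also in the list of NRF2 targets below. Of the 40 genes, 35 had a probe set with 1 symbol and 24 passed the filter. In limma 0 of 24 passed after adjustment, without the replicate block (0% of all genes) or with it (0.0182% of all). Before adjustment 2 were under 0.05 without the block (1.74% of all genes) and 4 with it (5.62% of all). In phd3 null 16 were lower and 8 higher, where 50.6% of all genes were lower. The median log2 difference was -0.08, and it ran from -0.23 without phd3 null sample 1 to 0.27 without phd3 null sample 3. In 3 of 3 pairs 6 were lower and 5 higher, where 13% of all genes were lower and 12.6% higher, and the groups did not overlap for 2 of 24, where 6.92% of all genes had no overlap.

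Those 2 were Mgst2 and Cysltr1. Mgst2, a microsomal glutathione transferase that can also form leukotriene C4, had signals of 38.1, 53.2 and 64.2 in phd3 null, against 116.6, 123 and 119.9 in wild type. All wild-type arrays were above all phd3 null arrays, and the log2 difference was -1.02 (SE 0.36). Cysltr1, a receptor for cysteinyl leukotrienes, had signals of 117.6, 198.7 and 104.6 in phd3 null, against 59.3, 88.8 and 41.7 in wild type, with a log2 difference of 0.98 (SE 0.39). Of all genes 3.02% had no overlap with phd3 null lower and 3.90% with phd3 null higher. Next came Cyp4f16, a further CYP4F gene, at 1.06 (SE 0.61), and Lpcat3, which puts arachidonate back into phospholipids, at -0.98 (SE 0.59). None of these 4 passed in limma (adjusted p = 0.9996 for each). With the replicate block the SEs were 0.41 for Mgst2, 0.38 for Cysltr1, 0.56 for Cyp4f16 and 0.30 for Lpcat3. The adjusted p-values in limma were then 0.840, 0.828, 0.884 and 0.726, and none passed. Ptgr2, the paralog of Ptgr1, had a log2 difference of -0.07 (SE 0.35), its signal averaging 74.2 ± 7.27 on phd3 null arrays, against 78.7 ± 6.63 on wild-type arrays (SD, n = 3 each).

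Ptgr1 is known as a target of NRF2, a transcription factor that turns on glutathione, thioredoxin and NADPH-generating enzymes under oxidative or electrophilic stress. Of 34 other textbook NRF2 targets, 26 passed the filter, and 25 of these 26 were lower in phd3 null, where 50.6% of all genes tested were lower. The list was drawn up when Gclm and Hmox1 were already known to be lower in these data, so its direction is not independent evidence. The median log2 difference was -0.48, beside -0.01 for all genes tested, with medians of -0.56, -0.40 and -0.53 in pairs 1 to 3. In 3 of 3 pairs 17 of the 26 were lower and 0 were higher, where 13% of all genes were lower and 12.6% higher. In limma 0 of 26 passed after adjustment, without the replicate block (0% of all genes) or with it (0.0182% of all). Before adjustment 0 were under 0.05 without the block (1.74% of all genes) and 10 with it (5.62% of all). With the block the lowest adjusted p in limma was 0.0901, for Gclm.

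Slc7a11, the cystine importer gene, had signals of 3745.2, 1896.5 and 889.9 in phd3 null and 5829.4, 3392.9 and 3093.6 in wild type, and a log2 difference of -1.08 (SE 0.52). Gclc, the catalytic subunit gene of the enzyme that Gclm modifies, had signals of 1118.2, 817.5 and 547 in phd3 null and 2136.3, 1885.8 and 803.9 in wild type, and a difference of -0.89 (SE 0.44). Both were below wild type in each pair, though the groups overlapped. Txnrd1, the cytosolic thioredoxin reductase gene, differed by -1.01 (SE 0.65), with signals of 2525.5, 1845.6 and 647.2 in phd3 null and 5788.8, 3587.7 and 1207.2 in wild type. Me1, the cytosolic malic enzyme gene, which supplies NADPH, differed by -1.02 (SE 0.56). Its groups did not overlap, at 9.4 to 93.8 in phd3 null and 97.6 to 132.2 in wild type, the pattern of 1 of the 26 genes and, lower in phd3 null, of 3.02% of all genes. None of these 4 passed in limma (adjusted p = 0.9996 for each). Nfe2l2, the gene of NRF2 itself, had signals of 3826, 3223.2 and 2082.9 in phd3 null and 5052.3, 3115.5 and 2967.4 in wild type, and its difference of -0.29 (SE 0.38) did not pass either.

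The NRF2 targets also shared the low signals of sample 3, with 18 of 26 lowest on both sample 3 arrays (16.9% of all genes). With both sample 3 arrays left out, 24 of 26 were lower in phd3 null (50.2% of all genes) and the median was -0.57. Leaving out single phd3 null arrays gave medians of -0.69 (24 of 26 lower) without sample 1, -0.69 (25 of 25) without sample 2 and -0.20 (17 of 26) without sample 3. Leaving out single wild-type arrays gave -0.22 (23 of 27) without sample 1, -0.31 (24 of 25) without sample 2 and -0.84 (25 of 28) without sample 3. In these fits 48.3% to 51.8% of all genes were lower. Monocyte and B cell marker levels moved with sample 3 as given above, and their part in the NRF2 target levels was not tested.

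**Figure D4:**
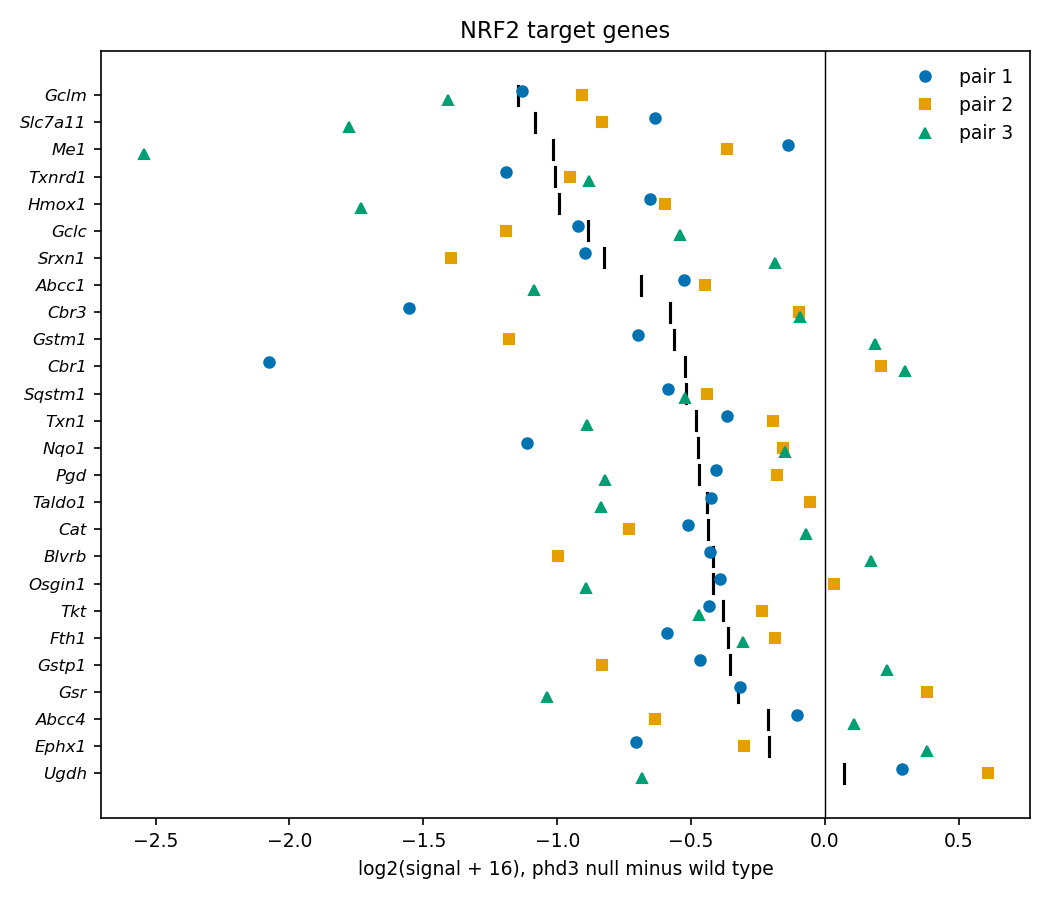
Difference of log2(signal + 16), phd3 null minus wild type, for the 26 tested NRF2 targets other than Ptgr1, sorted by the mean difference. Symbols are the 3 pairs and black ticks the mean of the pairs. Of the 26 ticks 25 lie left of 0, where 50.6% of all genes tested were lower, and Ugdh lies to the right.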

How the data were processed

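The deposited table holds MAS5 signal intensities on a linear scale for 45101 probe sets and 6 arrays, per the submitters' processing notes. The software version and settings are not given in the sources used here. The method scales every array to a common trimmed mean, and no further normalization was applied. Control probe sets (64) were left out. Symbols came from GEO's platform annotation, with 34945 probe sets naming 1 gene, 932 several and 9160 unnamed here. For each gene the probe set brightest on average, as log2(signal + 16), was kept, and genes with a mean below 5.90, the median of all non-control probe sets, were not tested, which left 10960. Genotypes were compared with limma 3.58.1 in R 4.3.3 (lmFit, eBayes with a trend, two-sided, Benjamini-Hochberg over all genes or all 45037 probe sets, threshold 0.05), unpaired, with the replicate number as a block as an alternative. Deviations from the group means correlated at 0.292, 0.151 and 0.474 in same-numbered pairs, whose source labels carry a shared code, and the numbers were therefore read as pairs. Differently numbered samples ran from -0.363 to 0.177, the highest being phd3 null 2 with wild type 1, above the 0.151 of pair 2. Scripts were first tested on simulated data of known differences.

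The members and lists were chosen with earlier results of these data known. Named genes are the members, Egln3, the 5 genes most and the 2 least correlated with Ptgr1, and list genes past the threshold or otherwise the 4 of smallest p in each list. Marker genes, S100a8 and Csf1r among them, the paralog Ptgr2, Nfe2l2, and list genes mentioned as exceptions or for their place in the lists were named after their values were seen. Promoter sequences were read from RefSeq.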

Additional observations from a re-analysis of the deposited data

How the results depend on the processing

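Under the 19 alternatives of the gene fit (17 for probe sets), 0 leukotriene members other than Ptgr1, which was not tested, 0 of their probe sets and 0 genes of the wider list passed the threshold, and the lowest adjusted p in limma of any member other than Ptgr1 was 0.470. The replicate block left the Ptgr1 difference at -1.69 and changed no call of the other members. Over all genes it gave 2 calls, 1 with quantile normalization added, 2 with a pseudocount of 1 and 4 with a pseudocount of 64. With both sample 3 arrays left out it gave 44 calls among 10978 genes. Of the 26 NRF2 targets tested there, 1 was among the 44, Srxn1 (adjusted p = 0.0223 in limma, log2 difference -1.15, SE 0.29). That fit had only 4 arrays for both the block and the genotype, which leaves little to estimate the spread of each gene. Unpaired, both sample 3 arrays left out gave 1 call over all genes, and leaving out 1 array gave 0 to 1.

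Ptgr1 ran from -3.16 to -0.11 when 1 array was left out, and so did Cyp4f18 from -1.34 to -0.11, Pla2g4a from -1.75 to -0.39, Alox15 from -1.82 to -0.90, Ltb4r1 from 0.45 to 1.35 and Alox5 from 0.12 to 0.35, none changing sign. Alox5ap changed sign, from -0.36 to 0.29, as did Lta4h, from -0.49 to 0.24, and Ltc4s, from -0.49 to 0.80. Alox5ap was also above 0 with quantile normalization (0.0652, with or without the block), with array weights (0.0718) and with both sample 3 arrays left out (0.10, with or without the block). With those 2 arrays left out Lta4h was at 0.00607 and Ltc4s at -0.69, in either fit, and array weights gave -0.0120 for Ltc4s. The cause was not tested. Of the 3 dim members, Ltc4s changed sign, and Ltb4r1 and Alox15 kept theirs in the 17 alternatives run, with no call.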
